A study of Mus musculus with 2 samples.

Results

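The 39 genes described here encode the steps that carry glucose into the cell, break it down to pyruvate and lactate, admit pyruvate to the mitochondrion's pyruvate dehydrogenase and store glucose as glycogen. They were taken by symbol from a list of pathway genes, by a rule that names the genes and uses no measured value, out of 54713 genes and loci in the deposited table. Of the 39, 38 reached a mean of at least 1 CPM, the count relative to the TMM-scaled library total, over both libraries, and the exception was Slc2a3. The cells were SV40 MES13, a mouse kidney line labelled as mesangial, the contractile cell type between glomerular capillaries. One subline carried the long noncoding RNA AI662270 by lentivirus (Lv_AI662270, genotype lncRNA AI662270 overexpression). The other carried the control virus (Lv_NC, genotype WT), and its counts were taken from the column named Lv_Con, the only control column. The treatment text names Sox9, not AI662270, as the RNA whose stable expression was checked. Both were selected as stable lines in 0.5 mg/ml puromycin, kept in 0.25 mg/ml puromycin with 10% serum, and labelled untreated. Whether each line was a pool or a clone was not given in the sources used here. RNA was labelled polyA.

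Each group held 1 library, so each value compares 2 libraries, with no replicate check and no p-value of its own. The libraries held 15062482 to 15727023 counts. AI662270 had 0 counts in the control library, where a count of 0 allows up to 3, and 241 counts in the AI662270 library. Of 10 mesangial markers 7 were measured, 1 higher and 2 lower by the rule of size described below, with summed counts of 719 and 934 in the control and AI662270 libraries, and Itga8, Thy1 and Ren1 were at 0 in both. Tubular epithelial markers held 10623 and 7805 counts, led by Cdh16, Epcam and Cdh1, and the label mesangial is thus only partly matched; Umod, Aqp2 and Slc34a1 were at 0 in both. Podocyte markers held 2324 and 1311 counts with Nphs1 at 0 in both, endothelial markers 9 and 22, and leukocyte markers 104 and 78. The part of these differences in the results was not tested.

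Glycolysis splits glucose into pyruvate in the cytosol, and most of its enzymes come as several isozymes encoded by separate genes. Lactate dehydrogenase turns pyruvate into lactate, which monocarboxylate transporters export, while pyruvate dehydrogenase commits pyruvate to the tricarboxylic acid cycle unless pyruvate dehydrogenase kinases switch it off. Many of these genes are known targets of hypoxia-inducible factor (HIF). Mesangial cells take up glucose mainly through the transporter encoded by Slc2a1.

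Transcripts of the pathway took a larger part of the AI662270 library. The 39 genes held 110149 of all counts in the control library, 0.700% (95% exact binomial interval 0.696 to 0.705), and 210953 in the AI662270 library, 1.401% (1.39 to 1.41). A rule of size defined the genes called higher or lower: a ratio of at least 2-fold at a pseudocount of 0.5 CPM, with a 95% exact counting interval of the ratio that leaves out 1. By that rule 10 of the 38 measured genes were higher and 0 lower, against 5.59% of all 13268 measured genes higher and 5.72% lower. Counting intervals alone lay above 1 for 25 of the 38 and below 1 for 7, against 31.9% and 35.8% of all measured genes. The median log2 ratio of the 38 was 0.73, and that of all measured genes -0.02. Above a mean of 50 CPM, 7 of 23 pathway genes were higher, against 67 of 5152 genes in all, or 1.30%. Bulk RNA cannot tell fewer cells of a kind from less RNA per cell.

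The 10 higher genes were Slc16a3, Pdk1, Pgam1, Gys1, Tpi1, Gapdh, Ldha, Pgm2, Pfkl and Ldhb. They lie on 7 chromosomes. Ratios throughout are the AI662270 library over the control library, values are given in the order control, AI662270, and the range after a fold is its 95% exact counting interval, which covers counting error only. The 7 genes whose interval lies below 1 are Hk2, Pfkfb3, Eno3, Slc16a1, Dlat, Pdhb and Pgm1.

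**Figure D1:**
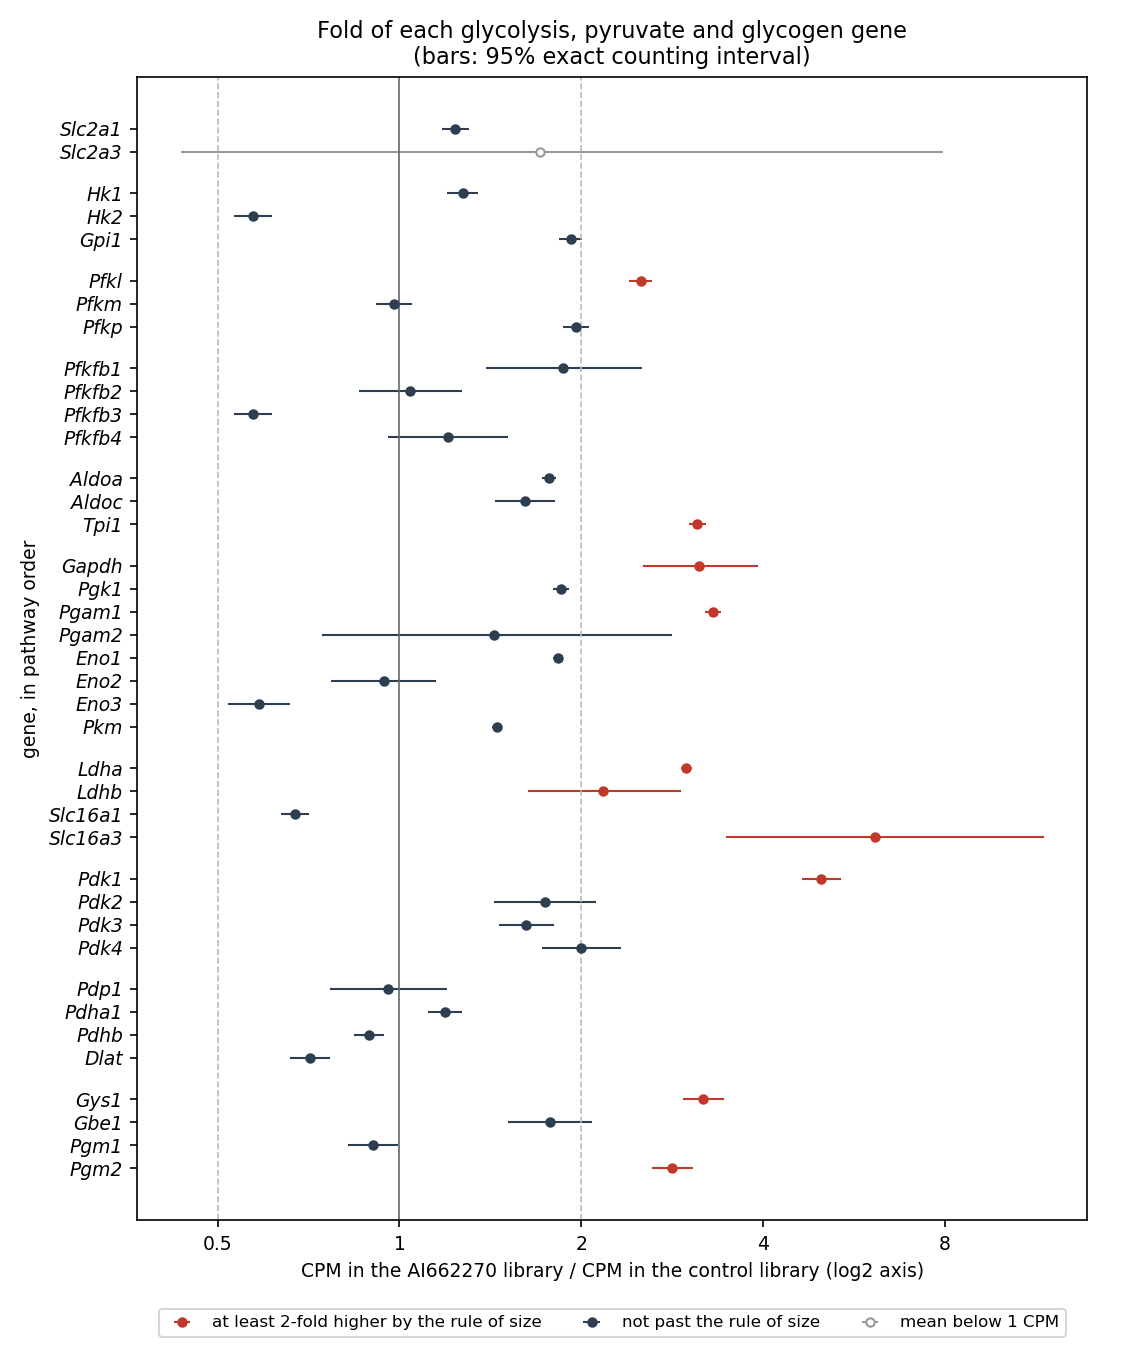
Ratio of CPM between the libraries for each gene in pathway order (log2 axis), with bars for the 95% exact counting interval and dashed lines at 2-fold. The 10 genes past the rule of size are in red, from Ldhb at 2.17-fold to Slc16a3 at 6.13-fold, and Slc2a3, below 1 CPM, is an open point.

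The 250 bases before the first listed RefSeq transcription start were searched for the core of the hypoxia response element in the 5 higher genes with the largest ratios above a mean of 50 CPM, and in the 2 genes with the lowest ratios, because many glycolytic genes are textbook HIF targets. The first listed start need not be the most upstream, and that of Ldha lies inside the deposited span of the gene. The 4 windows that overlap no annotated exon are shown, and those of Gys1, Tpi1 and Pfkfb3 overlap exons of Ruvbl2 (121 bases), Tpi1 (138 bases) and Pfkfb3 (148 bases). Letters are in capitals where the core, ACGTG or GCGTG, occurs on either strand; on the opposite strand it reads CACGT or CACGC, and CACGTG holds ACGTG on both strands and counts once. The build is mm10, and each sequence runs 5′ to 3′ on the strand of its gene.
Pdk1 (chr2:71872974-71873223, plus strand): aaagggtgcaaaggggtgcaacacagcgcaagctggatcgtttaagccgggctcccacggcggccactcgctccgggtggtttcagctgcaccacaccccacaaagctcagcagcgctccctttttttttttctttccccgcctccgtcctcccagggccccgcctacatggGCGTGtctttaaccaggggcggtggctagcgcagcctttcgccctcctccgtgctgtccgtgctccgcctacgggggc
Pgam1 (chr19:41911621-41911870, plus strand): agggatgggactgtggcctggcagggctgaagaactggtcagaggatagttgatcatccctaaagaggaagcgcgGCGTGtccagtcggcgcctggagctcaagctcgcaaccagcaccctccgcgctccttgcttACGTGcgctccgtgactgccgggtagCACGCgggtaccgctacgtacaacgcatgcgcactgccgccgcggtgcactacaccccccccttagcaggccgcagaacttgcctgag
Ldha (chr7:46845554-46845803, plus strand): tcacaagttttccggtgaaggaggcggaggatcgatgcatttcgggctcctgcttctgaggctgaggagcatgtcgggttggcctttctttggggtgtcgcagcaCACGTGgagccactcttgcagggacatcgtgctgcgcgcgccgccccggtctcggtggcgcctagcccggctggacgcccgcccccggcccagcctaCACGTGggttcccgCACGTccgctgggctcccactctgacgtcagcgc
Hk2 (chr6:82774455-82774704, minus strand): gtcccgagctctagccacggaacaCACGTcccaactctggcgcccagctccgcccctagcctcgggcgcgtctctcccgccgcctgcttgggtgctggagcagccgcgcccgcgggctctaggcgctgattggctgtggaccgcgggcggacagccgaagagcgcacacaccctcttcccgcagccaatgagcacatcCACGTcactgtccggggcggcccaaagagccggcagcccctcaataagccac

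Ldha held 3 cores, beginning at positions -145, -48 and -34 from the start, the first pair of them as CACGTG. Pgam1 also held 3, at -175, -114 and -88, and Pdk1 held 1 at -78. Tpi1 and Gys1 held 0 in this window although both were past the rule of size. The lower pair was not without them: Hk2 held 2 and Pfkfb3 held 1. Of the 39 genes, 37 had a window in the RefSeq table, and 26 of these windows, 70.3%, held at least 1 core. The share was 8 of 10 among the higher genes and 18 of 27 among the others. It was 57.9% over the 9641 measured genes with a window, 49.6% over the 520 of these that were called higher, and 38.6% over all 27025 genes in the table. Only the first listed window of each gene was counted. Hk1, Pfkfb1, Aldoa and Pkm, all among the others, held a core only in a further window. Tpi1 and Gys1 had no further window. With every listed window counted, the share would rise among the others and stay 8 of 10 among the higher genes. Shares over measured genes by every window were not computed. Median GC content was 60% in the pathway windows, 60.4% in those of measured genes and 52% in all. With a C required after the core (ACGTGC or GCGTGC) the share was 15 of 37 pathway windows, 7 of 10 among the higher genes, 8 of 27 among the others, 22.8% of measured genes and 20.8% of measured genes called higher. These matches are letters in a window and not measured binding.

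Neither glucose transporter passed the rule. Slc2a1, the main glucose transporter of most cells, had 2535 and 3215 counts, 167 and 206 CPM, a ratio of 1.24 (1.17 to 1.30). Slc2a3, the high-affinity transporter of neurons, had 4 and 7 counts, a ratio of 1.71 with an interval of 0.434 to 7.95 that covers both directions. Per exon kilobase Slc2a1 therefore made up 99.9% of the pair in both libraries.

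The hexokinases, which trap glucose as glucose 6-phosphate, had ratios on opposite sides of 1, and neither passed the rule. Hk1, the constitutive form, had 2027 and 2643 counts, a ratio of 1.27 (1.20 to 1.35). Hk2, the inducible form and itself a known HIF target, had 2028 and 1189 counts, 1.75-fold lower (1.63 to 1.88), short of the rule of size. By level per exon kilobase Hk2 was the majority form in the control library and Hk1 in the other. Hk1 made up 41.2% of the pair (39.7 to 42.7) and 60.9% (59.2 to 62.5). The sum over both isozymes was 38.0 and 32.7 CPM per kilobase. That change of majority rests on exon-union lengths of 8532 bases for Hk1 and 5969 for Hk2. By the longest coding transcripts, 4278 and 5513 bases, Hk1 led in both libraries. Gpi1, the isomerase that makes fructose 6-phosphate, had 3095 and 6094 counts, a ratio of 1.92 (1.84 to 2.01), just under the rule.

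Phosphofructokinase 1, the committed step, differed by isozyme. Pfkl (ENSMUSG00000020277, chr10:77986947-78010083), the liver form, had 2787 and 7165 counts, 183 and 460 CPM, a difference of 2.51-fold (2.40 to 2.62). Pfkp, the platelet form, had 2431 and 4884 counts, a ratio of 1.96 (1.87 to 2.06). Pfkm, the muscle form, had 1671 and 1678 counts, a ratio of 0.980 (0.915 to 1.05). Per exon kilobase Pfkm led in the control library with 45.5% of the 3 isozymes, and Pfkl led in the AI662270 library with 55.3%. Pfkp held 16.5% and 18.8%. The change from Pfkm to Pfkl rests on exon-union lengths of 6675 bases for Pfkl, 3340 for Pfkm and 13401 for Pfkp. By the longest coding transcripts, 3730, 2879 and 4145 bases, Pfkl led in both libraries.

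The PFKFB enzymes make and remove fructose 2,6-bisphosphate, the strongest activator of phosphofructokinase 1, and none passed the rule. Pfkfb3, the form with the highest kinase activity, had 2105 and 1234 counts, 1.75-fold lower (1.63 to 1.88). Pfkfb1 had 71 and 136 counts, a ratio of 1.87 (1.39 to 2.53). Pfkfb2, with 203 and 217 counts, and Pfkfb4, with 141 and 174 counts, had intervals that include 1. Pfkfb3 stayed the most abundant of the 4 per exon kilobase, with 78.9% and 62.1% of the sum.

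Aldolase and triose phosphate isomerase split the hexose and interconvert the products, and of their genes only Tpi1 passed the rule. Aldoa had 8441 and 15285 counts, a ratio of 1.77 (1.72 to 1.81), and Aldoc 488 and 808 counts, a ratio of 1.62 (1.44 to 1.81). Aldoa held 95.1% and 95.5% of the pair per exon kilobase. Tpi1 (ENSMUSG00000023456, chr6:124810586-124814296) had 4944 and 15785 counts, 325 and 1013 CPM, 3.12-fold higher (3.02 to 3.22). On chromosome 6 Tpi1 lies near Eno2 and Gapdh, whose ratios were 0.942 and 3.14. A second deposited gene named Aldoa (ENSMUSG00000114515, chr7:126800790-126809108) had 62 and 31 counts and was not added.

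Of the lower steps, phosphoglycerate mutase had the largest ratio of the pathway genes above a mean of 200 CPM. Pgam1 (ENSMUSG00000011752, chr19:41911871-41918664) had 5132 and 17372 counts, 338 and 1115 CPM, 3.30-fold higher (3.20 to 3.41). The muscle form Pgam2 had 17 and 25 counts and an interval that includes 1 (0.745 to 2.83), and Pgam1 made up over 99% of the pair in both libraries, at 99.2% and 99.7%. Pgk1, the first enzyme to form ATP in the pathway, had 7135 and 13540 counts, a ratio of 1.85 (1.80 to 1.91). Pkm, which makes pyruvate and the second ATP, had 23240 and 34512 counts, the most of any pathway gene, and a ratio of 1.45 (1.43 to 1.47). Gene counts do not separate its M1 and M2 splice forms.

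The enolases had ratios on both sides of 1, and none passed the rule. Eno1, the widespread form, had 15529 and 29175 counts, a ratio of 1.83 (1.80 to 1.87). Eno3, the muscle form, had 775 and 465 counts, 1.71-fold lower (1.52 to 1.92). Eno2, the neuronal form, had 205 and 198 counts and an interval that includes 1. Eno3 made up 13.2% and 4.66% of enolase per exon kilobase, and Eno1 85.5% and 94.6%. These shares rest on exon-union lengths of 5379 bases for Eno1 and 1739 for Eno3. By the longest coding transcripts, 2027 and 1564 bases, the share of Eno3 was smaller in both libraries.

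Gapdh, the dehydrogenase between triose phosphate and phosphoglycerate, was past the rule but cannot be read at face value. It (ENSMUSG00000057666, chr6:125161715-125166467) had 111 and 357 counts, 7.30 and 22.9 CPM, a ratio of 3.14 (2.53 to 3.92). At 1.77 and 5.54 CPM per exon kilobase it stood far below the neighbouring steps, Tpi1 with 118 and 368 and Pgk1 with 209 and 387. In all, 117 annotated copies matched Gapdh over at least 50% of their length at 90% identity or more, and 68 of them had counts. Together they held 1370 and 2269 counts, a ratio of 1.62 (1.51 to 1.73). The processed pseudogene Gm13394 (chr2:28933610-28934609), 99.9% identical to Gapdh over 1000 bases, alone held 899 and 1548 counts, more than Gapdh in each library, followed by Gm7336 with 105 and 134 and Gm12070 with 90 and 142. Of the 50-base windows of the longest Gapdh transcript, 82.5% occur exactly in those copies. Gapdh and its copies summed gave a ratio of 1.73 (1.62 to 1.85), and the sum did not pass the rule. The sum was still far below Pgk1, which had 7135 and 13540 counts. The handling of reads that map to several places was not given. Whether 1.73 is the ratio of Gapdh transcripts was not tested.

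Copies elsewhere left the ratios of their parents nearly as they were. In all 153 copies of 12 genes were found, of which 82 had a count. Ldha-ps2, 94.7% identical to Ldha over 836 bases, had 273 and 894 counts, a ratio of 3.20 (2.79 to 3.67), and Gm9247 had 26 and 105, a ratio of 3.94 (2.55 to 6.31). Pgam1-ps2, identical to Pgam1 over 765 bases, had 74 and 253 counts, a ratio of 3.34 (2.57 to 4.38). The intervals of Ldha-ps2, Gm9247 and Pgam1-ps2 include or overlap that of the parent gene. Tpi-rs11 had 87 and 325 counts, Gm6560, a copy of Pkm, 219 and 437, Pgk1-rs7 25 and 44, and Gm1840, a copy of Gpi1, 7 and 12. The retrogene Eno1b, annotated as protein-coding and 99.5% identical to Eno1, held 2223 and 3985 counts, a ratio of 1.75 (1.66 to 1.84). Shared sequence was high for Eno1 and Pgk1 too, with 72.2% and 68.0% of 50-base windows found in another gene, and 41.5% for Pgam1, 34.4% for Pkm and 16.6% for Ldha. With copies added, the ratio was 2.996 for Ldha, 3.30 for Pgam1, 3.12 for Tpi1, 1.82 for Eno1 and 1.45 for Pkm. Aldoa had 4 copies, all with 0 counts in both libraries.

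**Figure D2:**
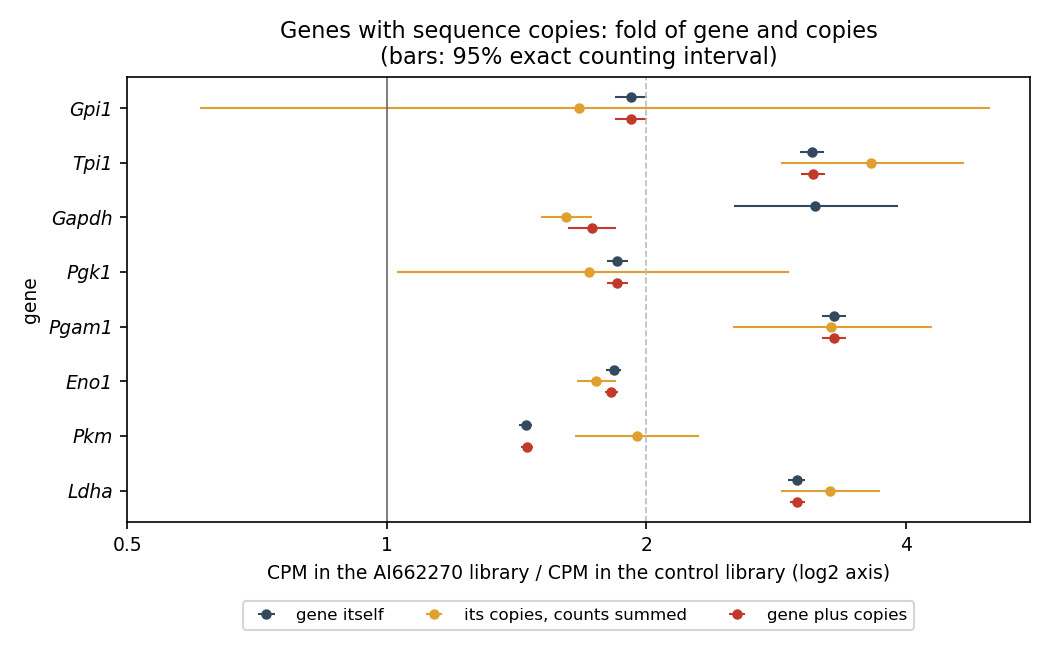
Ratio of CPM between the libraries (log2 axis) for each gene whose copies held at least 10 counts, for the gene alone, its copies summed and both together, with 95% exact counting intervals. The gene and its copies differ for Gapdh, 3.14 against 1.62, and for Pkm, 1.45 against 1.95, and their intervals overlap for Gpi1, Tpi1, Pgk1, Pgam1, Eno1 and Ldha.

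Both lactate dehydrogenase genes and 1 of 2 lactate transporter genes passed the rule. Ldha (ENSMUSG00000063229, chr7:46841475-46855627), the form that favours lactate, had 11079 and 33932 counts, 729 and 2178 CPM, 2.99-fold higher (2.92 to 3.05). Ldhb (ENSMUSG00000030246, chr6:142490249-142507957), the heart form, had 70 and 156 counts, a ratio of 2.17 (1.63 to 2.93). Ldha made up 98.7% and 99.04% of the pair per exon kilobase. Slc16a1, which encodes the transporter MCT1, had 3234 and 2225 counts, 1.49-fold lower (1.41 to 1.57). Slc16a3 (ENSMUSG00000025161, chr11:120948480-120960868), which encodes MCT4, a lactate exporter of glycolytic cells, had 14 and 88 counts, 0.921 and 5.65 CPM, 6.13-fold higher (3.47 to 11.7). In level per exon kilobase Slc16a1 remained far above Slc16a3, which made up 0.359% (0.196 to 0.602) and 3.19% (2.56 to 3.91) of the pair.

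Summed over isozymes, the level per exon kilobase was higher in the AI662270 library at 12 of 14 steps, counting Gapdh without its copies. Of all 13268 measured genes, 6458 had a log2 ratio above 0. The steps of lactate dehydrogenase, 223 and 664 CPM per kilobase, and phosphoglycerate mutase, 172 and 564, were the most abundant in the AI662270 library. Pyruvate kinase, 306 and 443, led in the control library. The order of steps depends on the length used, here the exon union. Exon-union lengths are 5379 bases for Eno1, 5001 for Pkm and 1982 for Pgam1, and the longest coding transcripts 2027, 2432 and 1775. By the latter, Eno1 and Pkm exceeded Pgam1 in the AI662270 library. Hexokinase and lactate transport, 48.2 and 33.3, were the exceptions among the 14. The PFKFB enzymes, not counted as a step, were lower as well, with sums of 23.2 and 16.9. The pyruvate dehydrogenase kinases were counted as 1 of the 14 steps, and the subunits of the complex were not. Of the subunits, Pdha1 had 30.3 and 36.0 CPM per kilobase, Pdhb 41.0 and 36.5, and Dlat 21.6 and 15.3. Phosphoglucomutase, with sums of 43.3 and 78.2, was not counted either. The 12 of 14 thus depends on which groups are taken as steps.

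**Figure D3:**
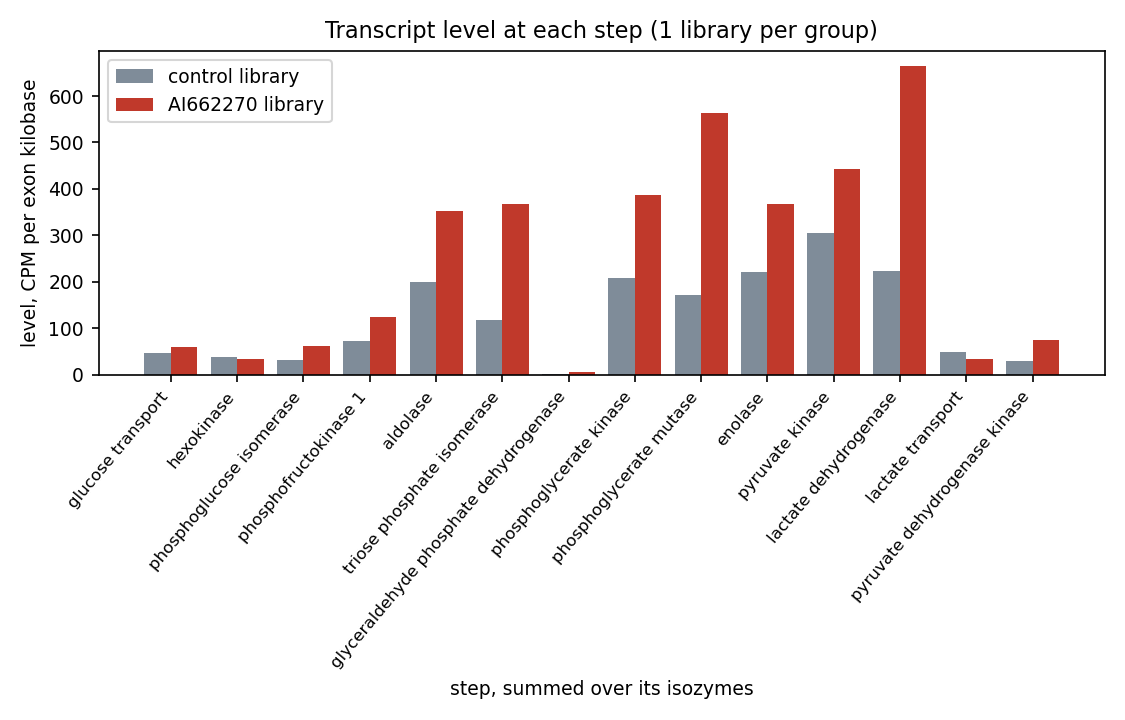
Level of each step in CPM per exon kilobase, summed over its isozymes, in the control (grey) and AI662270 (red) library, with 1 library per bar. The red bar is about as far above the grey bar, 2.98-fold to 3.29-fold, at triose phosphate isomerase, glyceraldehyde phosphate dehydrogenase, phosphoglycerate mutase and lactate dehydrogenase, and the low bars of glyceraldehyde phosphate dehydrogenase are the Gapdh gene without its copies.

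All 4 pyruvate dehydrogenase kinase genes, whose products inactivate the complex, had ratios above 1. Pdk1 (ENSMUSG00000006494, chr2:71873224-71903858) had 843 and 4312 counts, 55.4 and 277 CPM, 4.99-fold higher (4.63 to 5.38), the only one of the 4 past the rule. Pdk4, the starvation-induced form, had 261 and 535 counts, a ratio of 2.0001 (1.72 to 2.33), and missed the rule once the pseudocount was added (log2 ratio 0.98). Pdk2 had 166 and 296 counts, a ratio of 1.74 (1.43 to 2.12), and Pdk3 576 and 957 counts, a ratio of 1.62 (1.46 to 1.80). Per exon kilobase Pdk3 was the leading kinase in the control library with 48.9% of the sum, and Pdk1 in the AI662270 library with 47.2%.

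Genes of the complex itself and its phosphatases did not pass the rule. Pdha1, the E1 alpha subunit that the kinases phosphorylate, had 1719 and 2093 counts, a ratio of 1.19 (1.11 to 1.27). Pdhb, the E1 beta subunit, had 2404 and 2195 counts, 1.12-fold lower (1.06 to 1.19). Dlat, the E2 subunit, had 1601 and 1168 counts, 1.405-fold lower (1.30 to 1.52). Pdp1, the phosphatase that reactivates the complex, had 164 and 161 counts and an interval that includes 1.

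Of the 4 genes around glycogen, 2 passed the rule. Gys1 (ENSMUSG00000003865, chr7:45434844-45456619), the glycogen synthase of muscle and most other tissues, had 854 and 2787 counts, 56.2 and 179 CPM, 3.18-fold higher (2.95 to 3.44). Gbe1, the branching enzyme, had 242 and 440 counts, a ratio of 1.77 (1.51 to 2.08). The names Pgm1 and Pgm2 are exchanged between the deposited table and RefSeq. The deposited Pgm2 (ENSMUSG00000025791, chr4:99929414-99987294), which RefSeq calls Pgm1 and which links glucose 6-phosphate to glucose 1-phosphate, had 898 and 2607 counts, 2.83-fold higher (2.62 to 3.06). The deposited Pgm1 (ENSMUSG00000029171, chr5:64092950-64128351), which RefSeq calls Pgm2, had 909 and 843 counts, a ratio of 0.905 (0.823 to 0.995). The chromosome 4 gene made up 46.7% (44.4 to 49.02) and 73.3% (71.7 to 74.8) of the pair per exon kilobase.

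**Figure D4:**
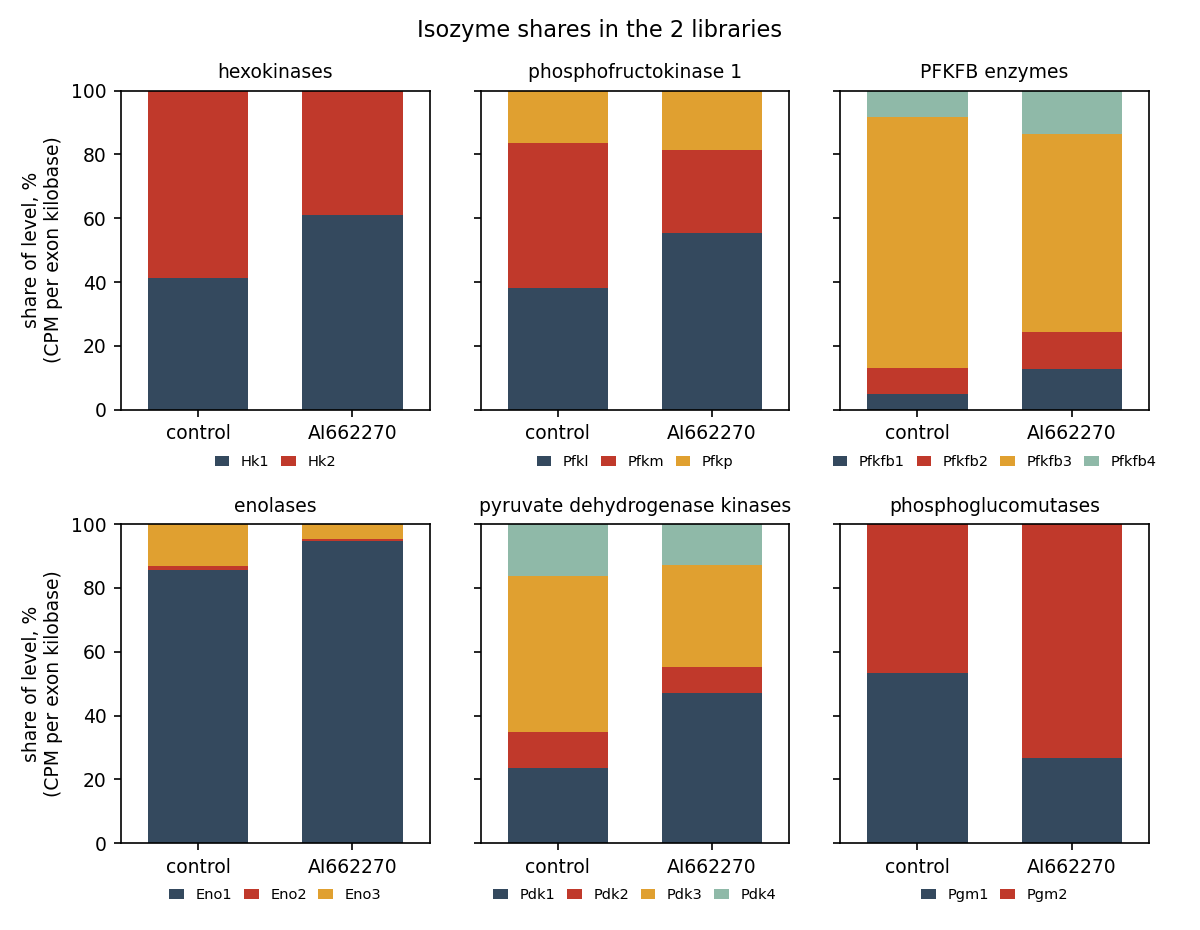
Share of each isozyme in the level of its step, in percent of CPM per exon kilobase, in the control and AI662270 library for 6 families. The leading gene changes from Hk2 to Hk1, Pfkm to Pfkl, Pdk3 to Pdk1 and Pgm1 to Pgm2, while Pfkfb3 and Eno1 lead in both. By the longest coding transcripts instead of the exon union, Hk1 and Pfkl lead in both libraries.

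Position on the chromosome was measured beside these ratios. The other measured genes on the chromosomes of the 38 genes had median log2 ratios from -0.15 to 0.13. Around the 38 genes, the 10 nearest measured genes had medians from -0.52 to 0.56, and 28 of the 38 lay above that median. Around the 10 higher genes the medians ran from -0.11 to 0.13. Those 10 were chosen for a high ratio, so lying above these medians follows from the choice. Some genes share exon bases with another gene, and the strand setting of the counts was not given in the sources used here: Pkm shares 767 bases with Gm49759 on the same strand (576 and 1519 counts), Gys1 310 with Ruvbl2 (2103 and 1825 counts), Pfkp 748 with Pitrm1 (1420 and 1829 counts), Pgm2 398 with Itgb3bp (114 and 141 counts), Pdha1 603 with Map3k15 (0 and 17 counts) and Gpi1 741 with Gm26762 (1 and 11 counts). Those shared bases were between 5.58% and 16.1% of the exon length of Pfkp, Gys1, Gpi1, Pgm2, Pkm and Pdha1. The part of this sharing in the ratios was not tested.

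The lists that follow are small, and all measured genes were 5.59% higher and 5.72% lower by the rule. The difference of each list from these shares was not tested. Of 13 measured isozymes and carriers outside the 39, 3 were higher and 0 lower with a median log2 ratio of 0.45. Among them were the glucose transporter genes Slc2a2 with 6 and 26 counts and Slc2a4 with 30 and 71, both of low level. Of 6 measured genes for pyruvate import and the rest of the dehydrogenase complex 0 passed the rule, with a median of -0.07. The most abundant were Dld, which encodes the E3 subunit, with a log2 ratio of -0.73, and Pdhx with -0.13. In the pentose phosphate pathway, which branches off at glucose 6-phosphate, 1 of 8 was lower and 0 higher, with a median of 0.04. It was Rpia, ribose 5-phosphate isomerase, with 789 and 274 counts, 2.95-fold lower (2.57 to 3.40). Of 17 tricarboxylic acid cycle genes 0 passed the rule, with a median of 0.07, and the most abundant, Mdh2 and Cs, had log2 ratios of 0.14 and -0.27.

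HIF targets outside glycolysis and oxygen-sensing genes had a like median. Of 26 measured, 10 were higher and 1 lower, against 5.59% and 5.72% of all measured genes. The median log2 ratio was 0.74. Examples were Ak4, 18.1-fold higher, Ankrd37, with 7 and 173 counts, Bnip3, 8.13-fold higher, and Epas1, which encodes HIF2 alpha, with 49 and 295 counts. The lower gene was Car12, with 147 and 60 counts, 2.51-fold lower (1.85 to 3.45). Hif1a itself had a log2 ratio of 0.04, and Vegfa, a HIF target, -0.36. This list was chosen with results of these data known, and the difference between the lists was not tested.

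**Figure D5:**
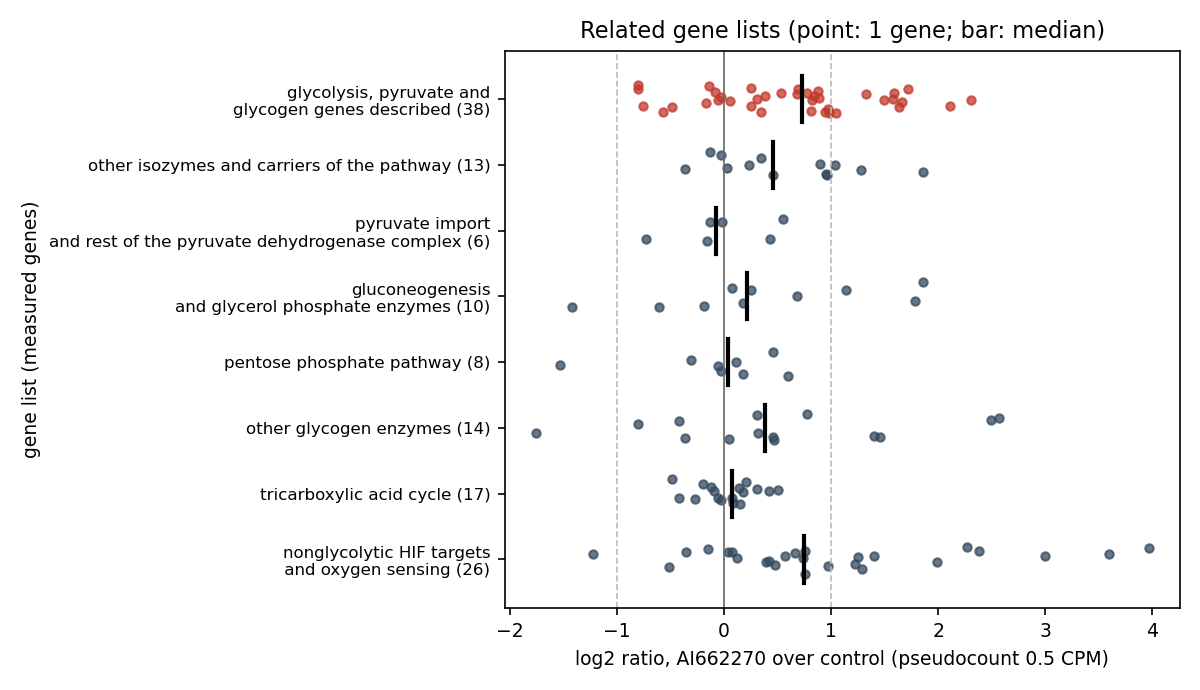
Log2 ratio between the libraries at a pseudocount of 0.5 CPM for each measured gene (points) of the described genes (red) and 7 related lists (dark), with the median of each list as a bar and dashed lines at 2-fold. The medians of the described genes, 0.73, and of the nonglycolytic HIF list, 0.74, lie to the right of that of the tricarboxylic acid cycle, 0.07.

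In the authors' deposited table, whose p-values also compare 1 library with 1 library, 9 of the 39 genes had an adjusted p under 0.05, or 23.1%, against 4.34% of the 20667 genes with a value. The 9 in the authors' deposited table were the 10 higher genes without Ldhb. The smallest adjusted p there was that of Pdk1, 1.16e-05, and the authors' deposited table gave Ldhb 0.199.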

How the data were processed

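PolyA RNA, per the labels, of 2 sublines was made into Illumina libraries, 1 per group. Per the submitters' processing notes, the authors used CASAVA 1.4 and TopHat2 on build mm10. The read counter, its handling of reads that map to several places, the annotation release, read length and strand setting were not given in the sources used here. The deposited counts are whole reads per gene without normalization, judged from the values. The deposited FPKM columns are counts per gene length over a single divisor of 15391166 in both libraries. The signal columns, counts rescaled by the authors per the file headers, were not used. The authors' log2 fold changes and p-values, per the file headers, are quoted as deposited.

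Here counts were scaled with TMM in edgeR 4.0.16 (R 4.3.3), with factors of 0.967 (control) and 1.03 (AI662270). Ratios, Clopper-Pearson intervals at 95% and the rule of size were computed with Python 3.11.15, numpy 2.4.6, pandas 2.3.3 and scipy 1.17.1. The rule was also run on simulated Poisson counts. These hold counting error only, so the run cannot show how the rule behaves between sublines without replicates. Levels per exon kilobase use exon-union lengths of GENCODE M21, equal to the deposited length for 98.0% of matched genes. Copies were found with blastn 2.17.0 against all protein-coding transcripts, keeping those whose best match was a pathway gene, with the best-scoring alignment of each copy, at 90% identity over at least 50% of the copy. Promoter sequences are from RefSeq on GRCm38.p6 (mm10) and were matched by position. Alternatives were total-count, DESeq2 1.42.0, upper-quartile and protein-coding scaling, other pseudocounts, filters and thresholds, FPKM, added copies and GC and length centring.

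All 39 genes are accounted for. In each related list up to 4 genes past the rule, or the 2 most abundant, are named, and of copies up to 3 per gene with at least 10 counts. Some genes of these lists are not reported here. Hif1a, Vegfa, Car12 and Pdp2 fall outside that rule and were chosen after their values were seen. The genes and lists were chosen with earlier results of these data known. With 1 library per group no p-value was computed.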

Additional observations from a re-analysis of the deposited data

How the results depend on the processing

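Of the 39 genes, the number higher by the rule of size was 9 to 13, and the number lower 0, under each of 11 alternatives of scaling, pseudocount, filter, unit, copies, and GC and length. With a 1.5-fold threshold 21 were higher and 3 lower, against 12.9% and 14.3% of measured genes, and with a 3-fold threshold 6 were higher, against 1.86%. The median log2 ratio ranged from 0.68 to 0.83. Pdk1, Pgam1, Tpi1, Gys1, Ldha, Pgm2 and Pfkl passed the rule under all 11. Gapdh was lost when its copies were added (log2 ratio 0.79), Ldhb with a pseudocount of 2 CPM (0.86) and with GC and length centring (0.97), and Slc16a3 had no value when a mean of 5 CPM was required. Pfkp and Pdk4 passed under total-count scaling (1.07 and 1.08), DESeq2 factors (1.004 and 1.01) and upper quartiles (1.04 and 1.05). Gpi1 passed under total-count scaling (1.04) and upper quartiles (1.01), and Pfkp also with GC and length centring (1.12). The sign of Pfkm, Pdp1 or Eno2, none past the rule, changed under total-count scaling, that of Pfkm and Pdp1 also with upper quartiles, and that of Pfkm on FPKM and with DESeq2 factors. At 95% identity 74 of the 153 copies were matched. No paired analysis was possible because each group held 1 library. At 4 and 7 counts, a change in Slc2a3 was not detectable at this depth.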

Other observations

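Glycogen genes beyond the 4 described above were measured too. Of 14, 4 were higher and 1 lower, against 5.59% and 5.72% of all measured genes. The median log2 ratio was 0.38. Epm2a, which encodes the glycogen phosphatase laforin, had 10 and 99 counts, 9.66-fold higher (5.04 to 20.8). Ppp1r3b, which directs protein phosphatase to glycogen, had 85 and 528 counts, 6.06-fold higher (4.81 to 7.71). Pygl, the liver glycogen phosphorylase, had 41 and 129 counts, 3.07-fold higher (2.15 to 4.48). Stbd1, a glycogen-binding protein, went the other way with 1772 and 530 counts, 3.43-fold lower (3.11 to 3.78).

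Among 10 measured genes of gluconeogenesis and glycerol phosphate metabolism, 3 were higher and 1 lower. The shares of all measured genes were 5.59% and 5.72%, and the median log2 ratio of the 10 was 0.21. Pcx, which makes oxaloacetate from pyruvate in the mitochondrion, had 132 and 512 counts, 3.78-fold higher (3.12 to 4.62). Slc37a4, the glucose 6-phosphate transporter of the endoplasmic reticulum, had 116 and 429 counts, 3.61-fold higher (2.93 to 4.47). Pgp, a phosphatase that clears phosphoglycolate, had 378 and 865 counts, 2.23-fold higher (1.98 to 2.53). Pck2, the mitochondrial enzyme that turns oxaloacetate into phosphoenolpyruvate, had 5638 and 2152 counts, 2.68-fold lower (2.55 to 2.82).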
